A study of Mus musculus with 40 samples.

Results

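The effect of repeated head impact on the mouse cortex was measured over both drug arms of the experiment, with all 20 libraries of impacted mice set against all 20 libraries of sham mice and the drug kept as a covariate. The members are therefore samples, 40 of the 40 in the series. All mice were male C57BL/6 (C57Bl/6J in the study's methods) and 12 weeks old, with no genetic change named in the labels, and each had received memantine or saline in the peritoneum 1 h before every daily session. The HF-HI mice (high-frequency head impact) took successive impacts to the head under isoflurane in each session, and the sham mice had the handling and anaesthesia alone. There were 10 libraries for each pairing of drug and procedure. The cortex was taken 24 h after the last session, so an impact effect measured here is that of impact on top of injection and daily anaesthesia.

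Head impact releases glutamate in the brain, and injured tissue is known to respond with reactive glia. In this state astrocytes make more of the filament protein GFAP, microglia make more lysosomal proteases, and both make proteins of the complement cascade, which tags material for removal. Memantine blocks the open channel of NMDA-type glutamate receptors.

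The deposited values were read back as normalised read counts per transcript, and the transcripts of a gene were added up to a gene sum. Recovered reads per library ran from 13322404 to 17529644, and no transcript in the table had a mean under 549.2 normalised counts. Upper layer genes of the cortex were present in 16 of 16 cases and deep layer genes in 8 of 19, while striatal genes (20 of 29), thalamic genes (6 of 15), hippocampal genes (5 of 15) and choroid plexus genes (2 of 12) were present as well. Calb1 and Mef2c stand on both the hippocampal and the upper layer list, and Bcl11b on both the striatal and the deep layer list. The presence of a listed gene does not by itself show that its region was in a dissection. The choroid plexus pair, Ttr and Enpp2, summed to between 4969.7 and 40020.2 counts in the sham libraries and between 5710.3 and 30823 in the HF-HI libraries. Memantine sham replicate 6, memantine HF-HI replicate 2, saline sham replicate 3 and saline sham replicate 7 were highest. No label gives a sequencing pool or day, so a batch could not be fitted.

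Promoters of 4 genes (Hmgcs1 was not among those called further on) are shown here because each holds a textbook response element of its pathway. Each is the run of 250 bases upstream of a RefSeq start (GRCm38.p6), written 5′ to 3′ on the strand of the gene, and capitals mark the element. Dio2 lies on the minus strand (chr12:90739039-90739288) and holds the cAMP response element TGACGTCA. Slc7a11 lies on the minus strand (chr3:50443614-50443863) and holds the amino acid response element TGATGNAA at 2 places. Hspa5 lies on the plus strand (chr2:34771840-34772089) and holds the endoplasmic reticulum stress element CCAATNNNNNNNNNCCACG. Hmgcs1 lies on the plus strand (chr13:119690101-119690350) and holds the sterol regulatory element TCACNCCAC.
Dio2 promoter: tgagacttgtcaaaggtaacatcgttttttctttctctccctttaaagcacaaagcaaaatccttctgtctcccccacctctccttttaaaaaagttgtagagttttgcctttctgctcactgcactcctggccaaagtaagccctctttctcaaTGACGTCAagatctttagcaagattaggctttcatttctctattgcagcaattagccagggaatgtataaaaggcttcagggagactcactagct
Slc7a11 promoter: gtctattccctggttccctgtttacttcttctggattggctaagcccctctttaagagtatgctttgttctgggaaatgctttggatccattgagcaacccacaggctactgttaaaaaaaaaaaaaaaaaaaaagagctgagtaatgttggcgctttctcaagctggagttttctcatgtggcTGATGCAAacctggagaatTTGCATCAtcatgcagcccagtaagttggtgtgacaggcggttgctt
Hspa5 promoter: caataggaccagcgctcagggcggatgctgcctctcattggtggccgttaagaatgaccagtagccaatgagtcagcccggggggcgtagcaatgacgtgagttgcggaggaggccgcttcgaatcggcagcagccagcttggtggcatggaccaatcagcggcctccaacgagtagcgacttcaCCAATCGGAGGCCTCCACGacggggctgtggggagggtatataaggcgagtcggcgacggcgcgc
Hmgcs1 promoter: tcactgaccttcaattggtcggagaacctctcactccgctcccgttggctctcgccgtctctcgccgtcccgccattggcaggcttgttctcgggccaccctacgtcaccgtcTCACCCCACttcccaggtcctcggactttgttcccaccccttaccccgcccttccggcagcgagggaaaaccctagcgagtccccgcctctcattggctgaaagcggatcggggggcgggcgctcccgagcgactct
Both strands of 32851 promoter windows of that length were searched. The cAMP response element was found in 1.55% of all windows, the amino acid response element in 3.45%, the stress element in 0.113% and the sterol element in 1.05%. In the 6131 windows of genes in the table the shares were 2.97%, 1.94%, 0.131% and 1.03% in that order. Of the 34 genes called further on, 28 had a window. The cAMP element was in 1 of those (Dio2), the amino acid element in 1 (Slc7a11), the stress element in 1 (Hspa5), and the sterol element in 2 (Gfap and Rsrp1).

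Head impact moved 34 of 5862 gene sums, 20 upward and 14 downward, at a Benjamini-Hochberg adjusted limma p-value under 0.1, which is 0.58% of those tested. Complement component C4b, the astrocyte filament gene Gfap and the collagen gene Col12a1 made the largest rises, and Dio2, Pdzd2 and Ccdc141 the largest falls. The changes were small: the rises ran from 0.07 for Eif4b to 0.40 for C4b on the log2(normalised count + 1) scale and the largest fall was -0.22 for Dio2. At an unadjusted p-value under 0.05 there were 637 gene sums (10.9% of those tested, where chance gives 293.1), 301 higher (5.13%) and 336 lower (5.73%) in HF-HI. Counts within gene lists further on stand beside these shares. Single transcripts gave 28 calls of 6831 (0.41%), 18 higher and 10 lower, and 655 at the unadjusted threshold, of which 47.9% were higher. That share was 60.8% when each library was centred on its median.

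**Figure D1:**
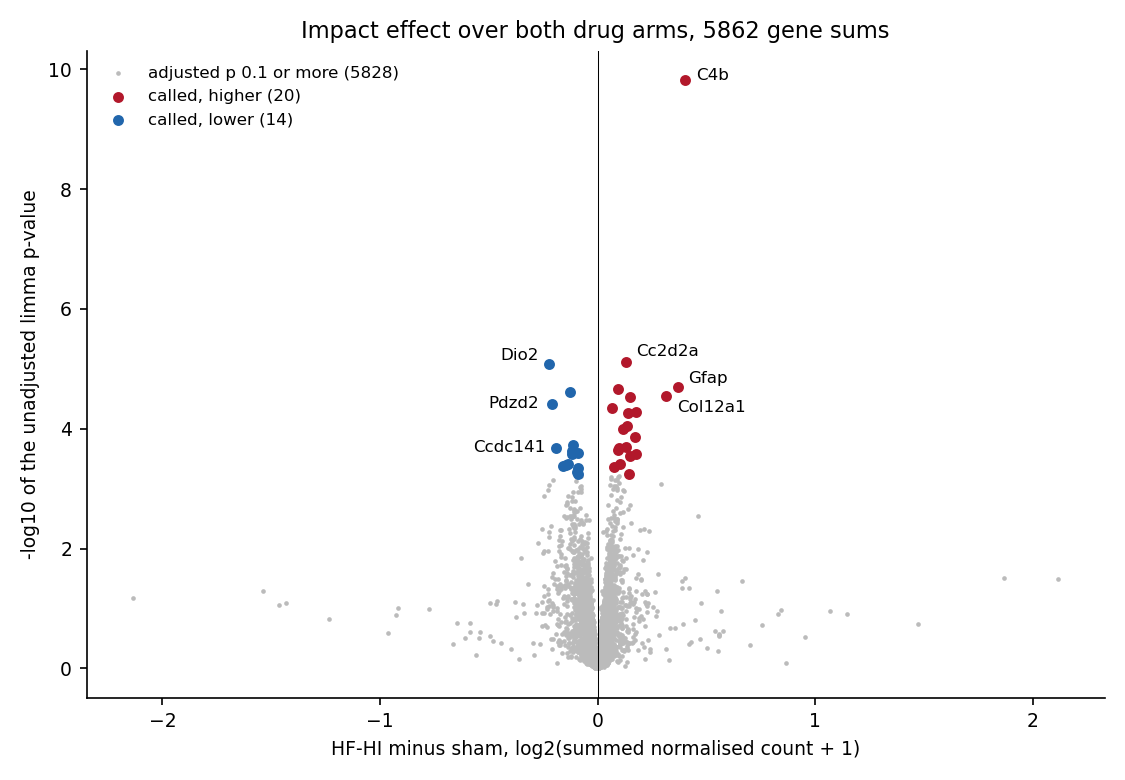
Each point is 1 of 5862 gene sums, with the HF-HI minus sham difference over both drug arms on log2(summed normalised count + 1) along the horizontal axis and -log10 of the unadjusted limma p-value along the vertical axis. The 20 called rises (red) and 14 called falls (blue) lie between -0.22 and 0.40, and C4b stands alone at the top.

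The number of calls depended on covariates and on single libraries. With the mean of the striatal genes as a covariate 8 gene sums were called (C4b, Dio2, Gfap, Col12a1, Cc2d2a, Eif4b and Abca1 among them), and when noisier libraries counted for less 135 were. Without the 4 libraries highest in choroid plexus genes, an alternative chosen after seeing the data, 18 were called. Leaving out saline sham replicate 1 gave 58 calls, saline sham replicate 2 gave 19, saline sham replicate 5 gave 19, memantine sham replicate 4 gave 18, memantine sham replicate 8 gave 56, memantine sham replicate 9 gave 113, memantine sham replicate 10 gave 19, saline HF-HI replicate 1 gave 55, saline HF-HI replicate 5 gave 20, saline HF-HI replicate 9 gave 16, memantine HF-HI replicate 5 gave 58 and memantine HF-HI replicate 9 gave 17. Of the 34 genes, 15 were called in each of the 40 fits without 1 library, and all 34 kept their direction there and under each alternative that tested them. As the genes were chosen on the same libraries, the kept directions are a description with no test.

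C4b (NM_009780, chr17:34728139-34743902) encodes complement component C4, which is cleaved and bound to targets at an early step of the cascade. Its normalised counts ran from 424 to 692 in sham libraries (median 524) and from 557 to 878 in HF-HI libraries (median 676). The ranges overlapped, and all 20 HF-HI libraries were above the sham mean of their own drug arm. The log2 difference was 0.40 ± 0.05 (SE), a rise of 32.3% (95% interval 23.8% to 41.3%), with an adjusted limma p of 8.92e-07 and a permutation p of 1e-05, the smallest that 100000 resamples can give. Within the memantine arm the ranges were apart, at 424.5 to 535.2 counts in sham and 557.2 to 878.5 in HF-HI libraries. Within the saline arm the lowest HF-HI value was 627.2, and sham replicate 7 (691.8) alone among the sham libraries exceeded it. Mouse C4b has a near-identical neighbour, C4a, and reads from the pair could be split between them by the counting.

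C1qa, a chain of the recognition molecule C1q, went from 543 ± 52.00 to 598 ± 56.03 counts (mean ± SD over 20 and 20 libraries), with an unadjusted limma p of 0.0022 and an adjusted p of 0.161. Of 6 complement genes measured, 3 were higher at the unadjusted threshold (C4b and C1qa among them) and 1 was lower (Csmd2, a membrane protein with complement control domains, at -0.08). The median of the list was 0.07, against 0.00 over all 5862 symbols.

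Gfap (NM_010277, chr11:102887336-102897200), the intermediate filament of astrocytes, ran from 1004 to 1654 normalised counts in sham libraries (median 1151) and from 1018 to 2270.4 in HF-HI libraries (median 1509.6). Although the ranges overlapped, 19 of 20 HF-HI libraries were above the sham mean of their arm. The rise of 29.2% (95% interval 16.1% to 43.7%) was a log2 difference of 0.37 ± 0.08 (SE), with an adjusted limma p of 0.0214. Gfap was the single member of 17 reactive astrocyte genes in the table.

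Other astrocyte genes went both ways. Of 19 measured, 4 were higher at the unadjusted threshold (Gfap, the matricellular gene Sparcl1, the gap junction gene Gja1 and the chaperone Clu) and 2 were lower (the receptor Ntsr2 among them), and the median was -0.0026, with a sign that flips when each library is centred on its median. Sparcl1 went from 31398 ± 1774 to 33217 ± 1494 counts (mean ± SD over 20 and 20 libraries), a log2 difference of 0.08 with an adjusted limma p of 0.101. Glul, which makes glutamine, and the water channel Aqp4 were among the 13 that did not pass. In these bulk libraries more cells of a type and more RNA per cell cannot be told apart.

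B2m and Ctss were also among the rises. B2m was the 1 gene in the table out of 11 of MHC class I, a list chosen after these values had been seen. B2m (chr2:122147687-122153082), the invariant light chain of class I major histocompatibility molecules, ran from 717 to 929.8 normalised counts in sham libraries (median 818) and from 821 to 1070.2 in HF-HI libraries (median 905). Of 20 HF-HI libraries 19 were above the sham mean of their arm, the log2 difference was 0.14 ± 0.03 (SE), and the adjusted limma p was 0.0412. Ctss, a lysosomal protease of microglia, went from 819.9 ± 73.7 to 907 ± 80.4 counts (mean ± SD over 20 and 20 libraries), with 16 of 20 libraries above and an adjusted limma p of 0.0996. That call was lost under 5 of 14 alternatives and was made in 14 of 40 fits without 1 library.

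The 8 microglial genes measured held 3 at the unadjusted threshold, all higher (Ctss and C1qa among them), and their median was 0.04. Over all gene sums 5.13% were higher at that threshold. The homeostatic receptors P2ry12 and Cx3cr1 and the growth factor receptor Csf1r were in the table and did not pass. The summed counts of the list ran from 11178 to 16676 in sham libraries and from 12040.5 to 17199 in HF-HI libraries. Abca1, a lipid exporter of glia and other cells, rose by 0.15 ± 0.04 (log2, SE), from 2021 ± 176 to 2242 ± 174 counts, with an adjusted limma p of 0.0659.

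**Figure D2:**
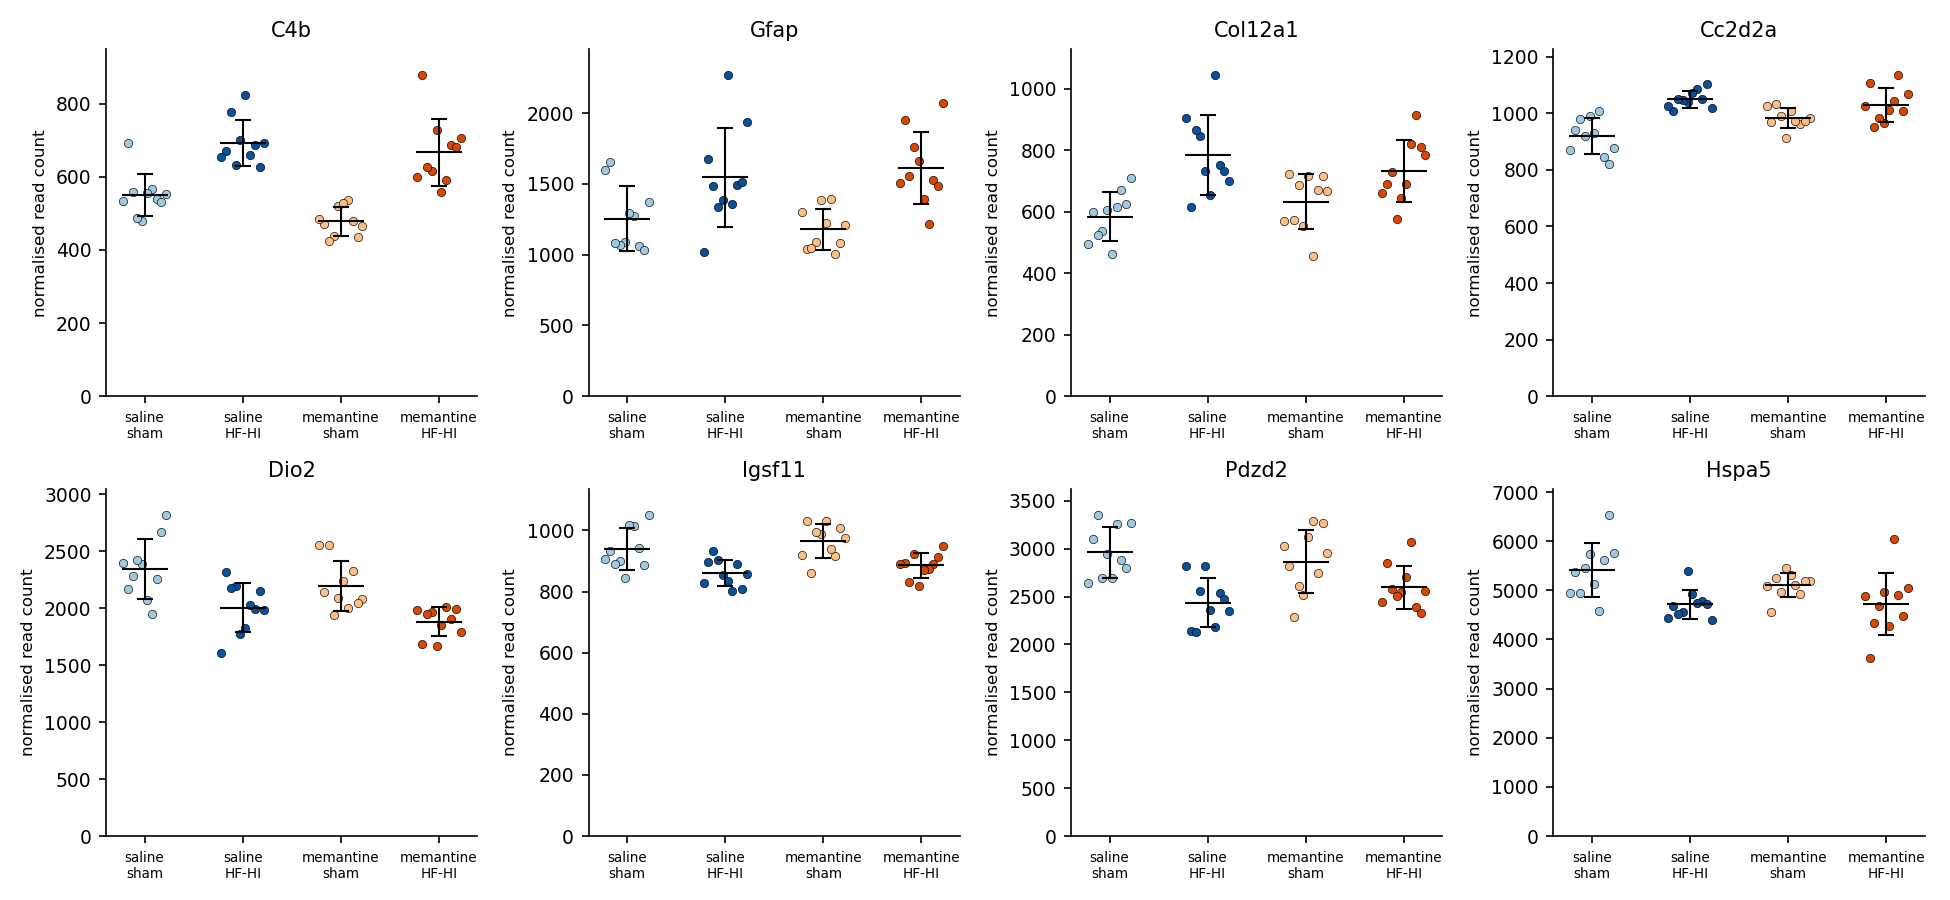
Normalised read counts of 8 genes are plotted for each of the 40 libraries in the 4 groups of 10, with a horizontal bar at the group mean and whiskers of 1 SD, on axes that start at 0. C4b, Gfap, Col12a1 and Cc2d2a have higher means in both HF-HI groups than in the sham group of the same drug. Dio2, Igsf11, Pdzd2 and Hspa5 have lower means there. Taken over both drugs, the HF-HI and sham ranges overlap in all 8 panels, but within the memantine arm those of C4b do not.

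Dio2 (NM_010050, chr12:90724552-90739038), whose promoter is shown above, encodes the deiodinase with which astrocytes turn thyroxine into the active hormone. Its counts ran from 1937 to 2821 in sham libraries (median 2246) and from 1604 to 2316 in HF-HI libraries (median 1976). The ranges overlapped, yet all 20 HF-HI libraries lay below the sham mean of their arm. The log2 difference was -0.22 ± 0.04 (SE), a change of -14.3% (95% interval -19.4% to -8.94%), with an adjusted limma p of 0.0161. The difference was -0.22 in the saline arm and -0.22 in the memantine arm.

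Igsf11 and Pdzd2 followed Dio2 among the falls. Igsf11, an adhesion molecule of the immunoglobulin superfamily found at excitatory synapses, ran from 846 to 1051 normalised counts in sham libraries (median 941) and from 803 to 949.6 in HF-HI libraries (median 881). All 20 HF-HI libraries were below the sham mean of their arm, with a log2 difference of -0.12 ± 0.03 (SE) and an adjusted limma p of 0.0214. Pdzd2, a protein with several PDZ domains, went from 2913 ± 296 to 2517 ± 247 counts (mean ± SD over 20 and 20 libraries), a log2 difference of -0.21 with an adjusted limma p of 0.0251.

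The other falls named were of genes with differing roles. Orai2, a pore subunit of store-operated calcium entry, went from 1049 ± 56.9 to 971 ± 60.6 counts and Itpk1, an inositol phosphate kinase, from 936 ± 74.6 to 846 ± 68.1 (mean ± SD over 20 and 20 libraries). Actn1, an actin cross-linker, fell by 0.14, Ccdc141, a coiled-coil protein, by 0.19, Htra1, a secreted serine protease, by 0.12, and Mapk4, an atypical MAP kinase, by 0.12 on the log2 scale. Zhx3, a zinc finger and homeobox factor, fell by 0.09, Sfxn1, a mitochondrial serine transporter, by 0.09, and Tmem263, a membrane protein, by 0.10. Their adjusted limma p-values lay between 0.0651 for Orai2 and 0.0959 for Tmem263. The Zhx3 locus overlaps Plcg1, which is also in the table, so reads from the overlap could count for either.

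Hspa5 and Hyou1, chaperones of the endoplasmic reticulum, were both among the falls. Hspa5 (chr2:34772090-34776529), known as BiP, binds unfolded proteins in the lumen and holds the stress sensors in check, and Hyou1 works beside it. Hspa5 ran from 4567 to 6536 normalised counts in sham libraries (median 5197) and from 3613 to 6051 in HF-HI libraries (median 4699.9), with 19 of 20 HF-HI libraries below the sham mean of their arm. The log2 difference was -0.16 ± 0.04 (SE) with an adjusted limma p of 0.0843. Hyou1 went from 2342 ± 117 to 2199 ± 124 counts (mean ± SD over 20 and 20 libraries) with an adjusted limma p of 0.0996, and its call was lost under 8 of 15 alternatives.

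A list of 19 chaperones and sensors of that compartment, chosen after these values had been seen, held 6 genes lower at the unadjusted threshold and 1 higher, with a median of -0.03, where 5.73% of all gene sums were lower and 5.13% higher. The 6 were Hspa5, Hyou1, the disulfide isomerases Pdia6 and Pdia4, the secreted factor Manf and the transcription factor Xbp1, and the 1 was Edem1, which helps clear misfolded proteins. The list's medians were -0.057 in the saline arm and -0.015 in the memantine arm. Its summed counts averaged 52356 in saline sham and 49992.5 in saline HF-HI libraries, and 50217 and 50525 under memantine. A wider list of 29 heat shock and chaperone genes was not among those added after these values. It held 1 lower (Hspa5) and 1 higher (Dnajb1), with a median of 0.0005. Pdia6 went from 1659 ± 120.3 to 1538 ± 118 counts (mean ± SD over 20 and 20 libraries), with an unadjusted limma p of 0.00223 and an adjusted p of 0.161. The stress element of the Hspa5 promoter was found in 6 of the 16 members with a window (Calr, Canx, Dnajc3, Hsp90b1, Hspa5 and Pdia6), of which Hspa5 and Pdia6 were among the 6 lower genes.

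Amino acid transporters were among the rises. Slc7a11, the cystine and glutamate exchanger of astrocytes, ran from 1508 to 1957 normalised counts in sham libraries (median 1653) and from 1581 to 2111 in HF-HI libraries (median 1875), with 18 of 20 HF-HI libraries above the sham mean of their arm. The log2 difference was 0.14 ± 0.03 (SE) and the adjusted limma p was 0.027. Slc38a2, a carrier of small neutral amino acids, rose by 0.13 ± 0.03 (SE) with an adjusted limma p of 0.0651, although 14 of 20 libraries lay above. Both genes are known targets of the amino acid stress response, and of its 15 measured members 3 were higher at the unadjusted threshold (these and the synthetase gene Gars) and 1 lower (the transporter Slc7a5, at -0.11). Asns and Atf4 did not pass, and the list's median was 0.01.

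Slc16a1, the monocarboxylate transporter of endothelium and glia, rose from 714 ± 60.7 to 806 ± 79.95 counts (mean ± SD over 20 and 20 libraries), a log2 difference of 0.17 with an adjusted limma p of 0.054. Pdk1, a kinase that slows pyruvate oxidation, rose by 0.08 with an adjusted limma p of 0.0843. The 17 genes of lactate and glucose handling held 1 higher (Slc16a1) and 2 lower (Ldha and Eno1) at the unadjusted threshold, with a median of -0.01. Of 9 endothelial and mural genes 1 was higher (Slc16a1) and 1 lower (Rgs5).

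Several rises belonged to RNA handling and translation. Tut7, which adds uridines to RNA ends, ran from 1670.5 to 1899 normalised counts in sham libraries (median 1732) and from 1773 to 2065 in HF-HI libraries (median 1848), and all 20 HF-HI libraries were above the sham mean of their arm. Its log2 difference was 0.09 ± 0.02 (SE) with an adjusted limma p of 0.0214. Eif4b, an initiation factor that assists the RNA helicase eIF4A, rose by 0.07 ± 0.01 (SE), from 4226 ± 138 to 4425 ± 126 counts, with an adjusted limma p of 0.0262. Rsrp1, an arginine and serine-rich protein, rose by 0.12 (adjusted limma p of 0.0425) and the splicing factor Srsf5 by 0.10 (adjusted limma p of 0.0651).

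For Srsf5 the transcripts differed in their values. NM_001079695 went from 1227 to 1379 mean counts, with an adjusted limma p of 0.0676 among transcripts, and NM_001079694 from 1121 to 1136, with an unadjusted limma p of 0.592. Their shares of the gene sum differed with an unadjusted limma p of 0.0399 and an adjusted p of 0.767. A list of 28 splicing regulators, chosen after these values had been seen, held 5 higher at the unadjusted threshold (Rsrp1, Srsf5, Rbm5, Clk1 and Clk4) and 2 lower (Srsf7 and Srsf10), with a median of 0.03, beside 5.13% and 5.73% of all gene sums. Cytosolic ribosomal protein genes held 8 of 61 higher and 0 lower in limma at the unadjusted threshold, with a median of 0.02 and a smallest adjusted p of 0.191, and 2 of 61 were higher without the 4 libraries highest in choroid plexus genes. The 8 included Rpl7 and Rpl4, and reads of these genes can be shared with their many processed pseudogenes.

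Cc2d2a (chr5:43662374-43740975), a protein of the transition zone at the base of the primary cilium, followed C4b in the order of p-values. Its counts ran from 820.1 to 1032 in sham libraries (median 971) and from 952 to 1136 in HF-HI libraries (median 1042), with 18 of 20 HF-HI libraries above the sham mean of their arm. The log2 difference was 0.13 ± 0.03 (SE) with an adjusted limma p of 0.0161. Of 11 ciliary genes it alone passed the unadjusted threshold.

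Col12a1, a collagen that associates with fibrils, ran from 457 to 721 normalised counts in sham libraries (median 610.5) and from 578 to 1045 in HF-HI libraries (median 732), a log2 difference of 0.32 ± 0.07 (SE) with an adjusted limma p of 0.0214. Of the 16 matrix genes 5 were lower at the unadjusted threshold (Reln, Col4a1, Col4a2, Ncan and Col25a1) and 2 higher (Col12a1 and Sparcl1), with a list median of -0.07. All gene sums held 5.73% lower and 5.13% higher there. Gtdc1, a glycosyltransferase-like protein, rose by 0.15 with an adjusted limma p of 0.0214. Vps13a, a lipid transfer protein, rose by 0.09 and Kif16b, an endosomal kinesin, by 0.10, with adjusted limma p-values of 0.0651 and 0.0843. The non-coding RNA 5031426D15Rik (NR_027890), whose locus overlaps Celf2, rose by 0.17 with an adjusted limma p of 0.0651. Permutation p-values for the 34 called genes, with impact labels shuffled within each drug arm, ran from 1e-05 for C4b, Cc2d2a and Dio2 to 0.00082 for Hyou1. These genes were chosen by small limma p-values in the same libraries, so small permutation p-values follow from that choice. They are also not adjusted for the number of gene sums tested.

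**Figure D3:**
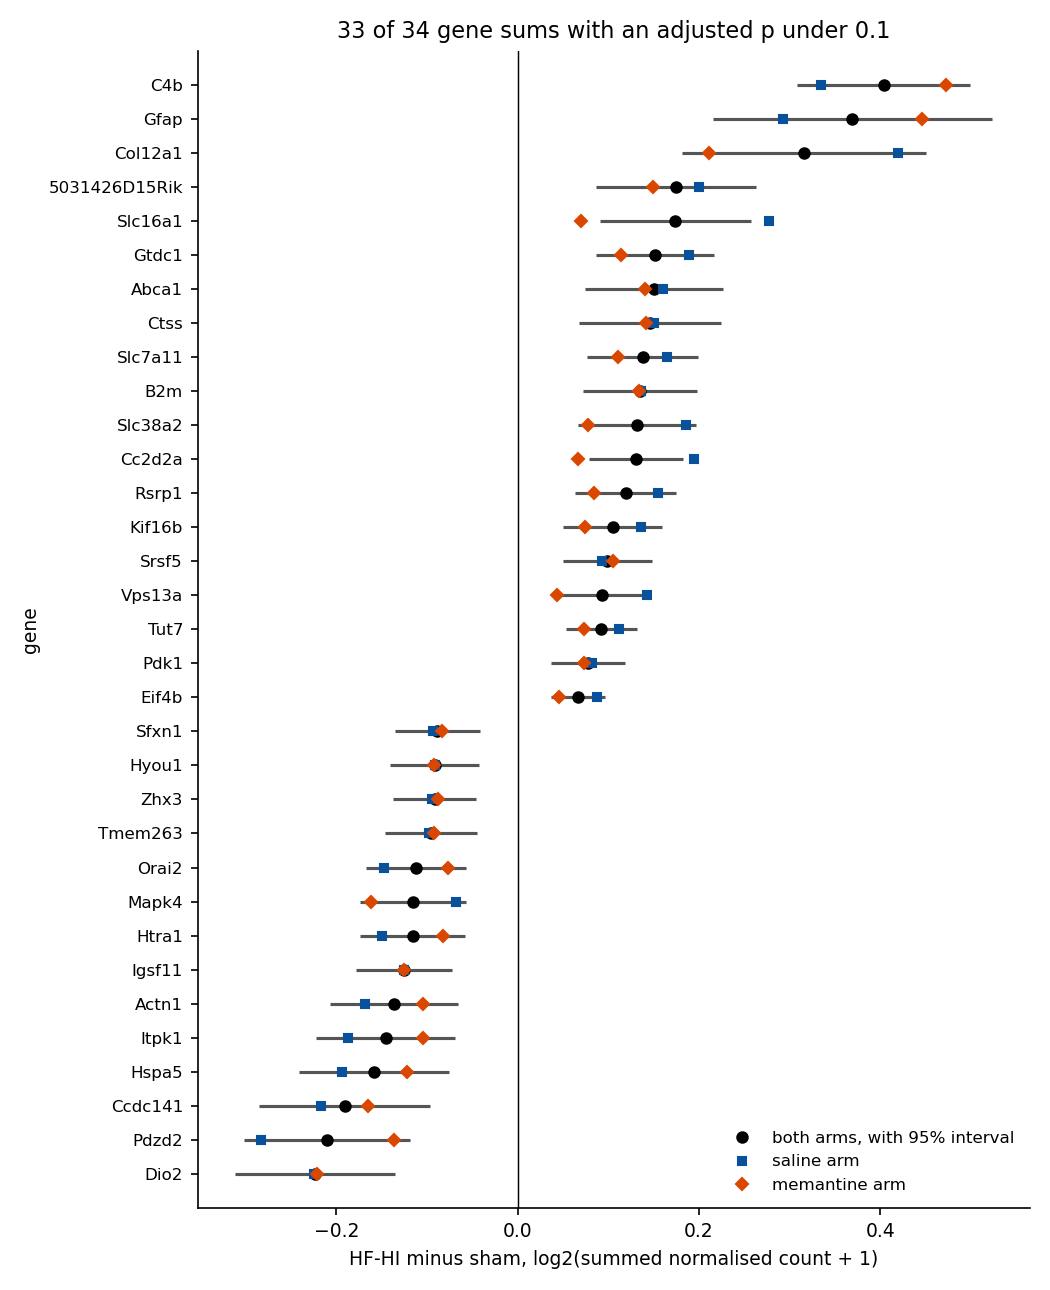
For 33 of the 34 called genes the HF-HI minus sham difference on log2(summed normalised count + 1) is drawn over both arms with its 95% interval (black circles), in the saline arm (blue squares) and in the memantine arm (orange diamonds). All 33 pairs of arm values lie on the same side of 0, and 27 are farther from 0 in the saline arm.

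All 34 called genes had the same sign in both drug arms, and 27 of them had the larger difference in the saline arm and 7 in the memantine arm. Because the genes were chosen on both arms together, these counts are a description with no test. C4b was higher by 0.33 in the saline arm and by 0.47 in the memantine arm, and Gfap by 0.29 and 0.45. Slc16a1 was higher by 0.28 in the saline arm and by 0.07 in the memantine arm, and Cc2d2a by 0.19 and 0.07. In the test of the difference itself Slc16a1 and Cc2d2a had unadjusted limma p-values of 0.00959 and 0.00991, and adjusted p-values of 0.999.

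Within single arms, the gene sums at an unadjusted p under 0.05 numbered 628 under saline and 256 under memantine, with 21 and 1 past the adjusted threshold, the 1 being C4b. The difference between the arms was called in limma for 0 of 5862 gene sums, with 210 at an unadjusted p under 0.05 where chance gives 293.1, so unequal counts do not show unequal effects. The smallest p-values of that difference belonged to Ank, a pyrophosphate transporter, Dnajc6, a clathrin uncoating factor, Fam120c and the synaptic adhesion gene Lrrtm4. Ank differed by 0.07 under saline and -0.05 under memantine and Dnajc6 by 0.09 and -0.04. Fam120c differed by -0.11 and 0.01 and Lrrtm4 by -0.35 and 0.20. Their unadjusted limma p-values lay between 0.00115 for Ank and 0.00212 for Lrrtm4, with adjusted p-values of 0.999.

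Genes of sterol and fatty acid synthesis were mostly at lower values in HF-HI libraries. Of 19 measured, 8 were lower at the unadjusted threshold and 0 higher in limma, where 5.73% of all gene sums were lower, and the median was -0.06. Among them were the sterol enzymes Hmgcs1, Fdps, Fdft1 and Msmo1, the desaturases Scd1 and Scd2 and the transcription factor Srebf2, which switches the pathway on. Without the 4 libraries highest in choroid plexus genes 9 were lower, and with the striatal mean as a covariate 8.

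Hmgcs1, which makes HMG-CoA for the pathway, ran from 4619 to 6239 normalised counts in sham libraries (median 5082) and from 3709.7 to 5362 in HF-HI libraries (median 4810.1), with an unadjusted limma p of 0.00246 and an adjusted p of 0.168. Scd1 went from 3536 ± 270.4 to 3249 ± 311 counts (mean ± SD over 20 and 20 libraries), with an adjusted limma p of 0.16, so that no single member was called. The list's medians were -0.06 in the saline arm and -0.06 in the memantine arm. Of the 11 members with a promoter window, Hmgcs1 alone held the sterol element as spelled above.

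**Figure D4:**
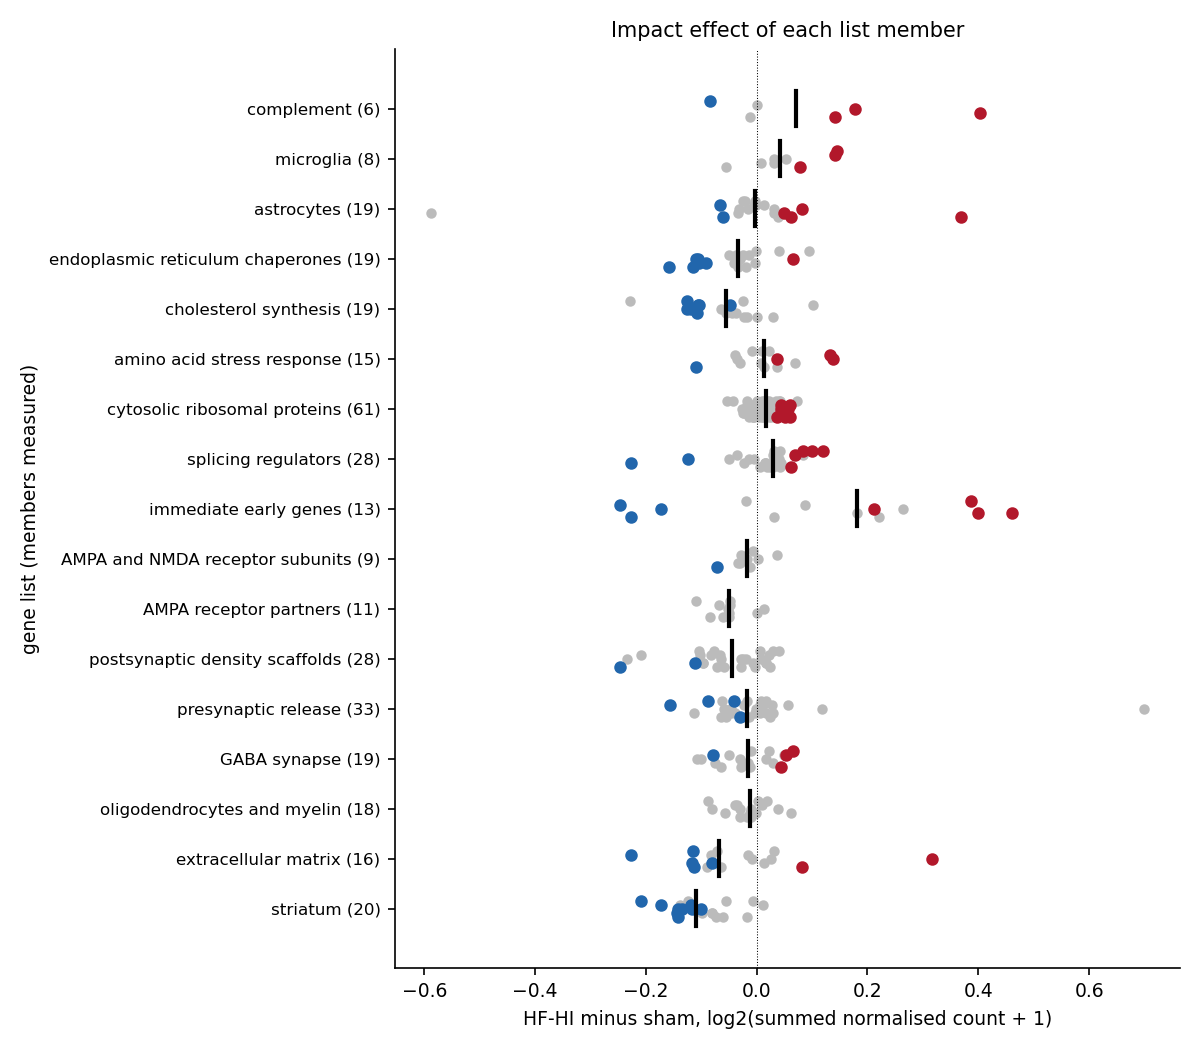
Each point is a gene of the list named on the vertical axis, with the HF-HI minus sham difference on log2(summed normalised count + 1) along the horizontal axis, red (higher) or blue (lower) where the unadjusted limma p is under 0.05 and grey elsewhere, and a black bar at the list median. All 8 coloured cholesterol synthesis genes and all 9 coloured striatum genes are lower, while the immediate early genes hold 4 higher and 3 lower.

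Immediate early genes, which neurons switch on soon after activity, went both ways. Of 13 measured, 4 were higher at the unadjusted threshold (the transcription factors Junb and Nr4a1, the synaptic gene Arc and the phosphatase Dusp6) and 3 lower (the pentraxin Nptx2, the secreted peptide gene Vgf and the transcription factor Egr3), with a list median of 0.18. Junb ran from 267 to 909 normalised counts in sham libraries (median 541) and from 345 to 1259 in HF-HI libraries (median 799), with an unadjusted limma p of 0.00281 and an adjusted p of 0.18. Nptx2 went from 655 ± 99.1 to 561 ± 91.7 counts (mean ± SD over 20 and 20 libraries), with an adjusted limma p of 0.109.

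The ranges of Junb overlapped widely. The median of the list was 0.27 in the saline arm and 0.03 in the memantine arm, and the arm difference of Junb had an unadjusted limma p of 0.0701 and an adjusted p of 0.999. Nptx2 differed by -0.17 under saline and -0.28 under memantine. With the striatal mean as a covariate 2 of the list were higher and 3 lower.

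The sham libraries stood apart by replicate number for several of these genes, a split chosen after seeing the data. In saline sham mice Arc ran from 1874 to 2239 normalised counts in replicates 1 to 5 and from 2623 to 4537 in replicates 6 to 10, and in memantine sham mice from 1611 to 3014 and from 4262 to 6551. Nr4a1 did not overlap between these sets of replicates in either sham group, and Junb did not in saline sham mice. In the HF-HI groups replicate 1 was lowest for Arc, at 1704 counts under saline and 1540 under memantine, while replicates 2 to 5 began at 5039 and 3341 counts and replicates 6 to 10 at 4728 and 3536. The labels do not say what the numbers mark, and the cause of the split was not tested.

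The values of these genes depended on that split. The median of the 13 was 0.33 in replicates 1 to 5, with 7 higher and 2 lower at the unadjusted threshold, and -0.04 in replicates 6 to 10, with 1 higher (Junb) and 0 lower in limma. Arc differed by 0.84 (unadjusted limma p of 0.00124) in replicates 1 to 5 and by -0.04 (0.752) in replicates 6 to 10. In replicates 6 to 10 the memantine arm of Arc turned to -0.37 against 0.29 in the saline arm, and its arm difference had an unadjusted limma p of 0.00273. There Nr4a1 stood at -0.24 against 0.47 and Dusp6 at -0.09 against 0.27, with unadjusted limma p-values of 0.00055 and 0.00081 for the arm difference. In replicates 1 to 5 the arm differences of Arc, Nr4a1 and Dusp6 had unadjusted limma p-values of 0.268, 0.221 and 0.408. Without replicate 1 of each group 8 of the list were higher and 2 lower, and Junb (0.51, adjusted limma p of 0.0514), Dusp6 (0.24, 0.0494) and Nptx2 (-0.24, 0.0910) passed the adjusted threshold. With the set of replicates as a covariate 6 were higher and 3 lower, and Junb passed (adjusted limma p of 0.0857). The unadjusted limma p-values of the arm difference were then 0.0294 for Junb, 0.0206 for Nr4a1, 0.0453 for Arc and 0.0299 for Dusp6. Those of the remaining members were over 0.05.

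Of the 34 genes called over all libraries, 34 kept their direction in each set of replicates, where 30 passed the unadjusted threshold in replicates 1 to 5 and 33 in replicates 6 to 10. Each set is part of the libraries that chose these genes, so the counts are a description with no test. The calls among all gene sums numbered 37 with the set as a covariate and 77 without replicate 1 of each group.

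Glutamate receptor genes showed small differences. Of 9 AMPA and NMDA receptor subunits 1 was lower at the unadjusted threshold, the AMPA subunit Gria1, which went from 8767 ± 584 to 8342 ± 618 counts (mean ± SD over 20 and 20 libraries) with an adjusted limma p of 0.392. The NMDA subunits Grin1, Grin2a and Grin2b did not pass, and the differences of the 9 ran from -0.07 to 0.04 with a median of -0.02. Of 11 AMPA receptor partners 0 passed in limma at an unadjusted p under 0.05, and the smallest p was 0.0876.

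In the postsynaptic density 2 of 28 genes were lower (Dlgap2 and Baiap2, both scaffold proteins) and 0 higher in limma at the unadjusted threshold, with a median of -0.04. Dlgap2 went from 1488 ± 214 to 1259.5 ± 220.1 counts (mean ± SD over 20 and 20 libraries), with an adjusted limma p of 0.123. The 33 genes of transmitter release held 4 lower (Nrxn2, Nrxn3, Syt11 and Cplx2), 0 higher and a median of -0.02. At the GABA synapse 3 of 19 were higher (the receptor subunit Gabrb2 among them) and 1 lower, with a median of -0.02. The 18 myelin genes and 44 chromatin modifiers held 0 past the unadjusted threshold in limma. Over all gene sums 5.73% were lower and 5.13% higher at that threshold.

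Striatal genes were at lower values in the HF-HI libraries. Of 20 measured, 9 were lower at the unadjusted threshold (Ptpn5, Pde10a, Rasd2, Adcy5, Gng7, Ppp1r1b, Gnal and Actn2 among them) and 0 higher in limma, with a median of -0.11, of -0.17 in the saline arm and of -0.04 in the memantine arm. Over all gene sums 5.73% were lower at that threshold. The summed counts ran from 66256 to 100582 in sham libraries (median 84574) and from 65071 to 89976 in HF-HI libraries (median 76201). Without the 4 libraries highest in choroid plexus genes 2 of 20 were lower. The amount of striatum in a dissection and a change within its cells cannot be told apart for these genes, and their part in the other results was not tested beyond the fit with their mean as a covariate. In that fit the log2 difference was -0.24 for Dio2, 0.41 for C4b and 0.37 for Gfap, with adjusted limma p-values of 0.0140, 4.12e-06 and 0.0615. Pdzd2 (-0.18) and Hspa5 (-0.16) were no longer called there, with adjusted limma p-values of 0.124 and 0.186.

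**Figure D5:**
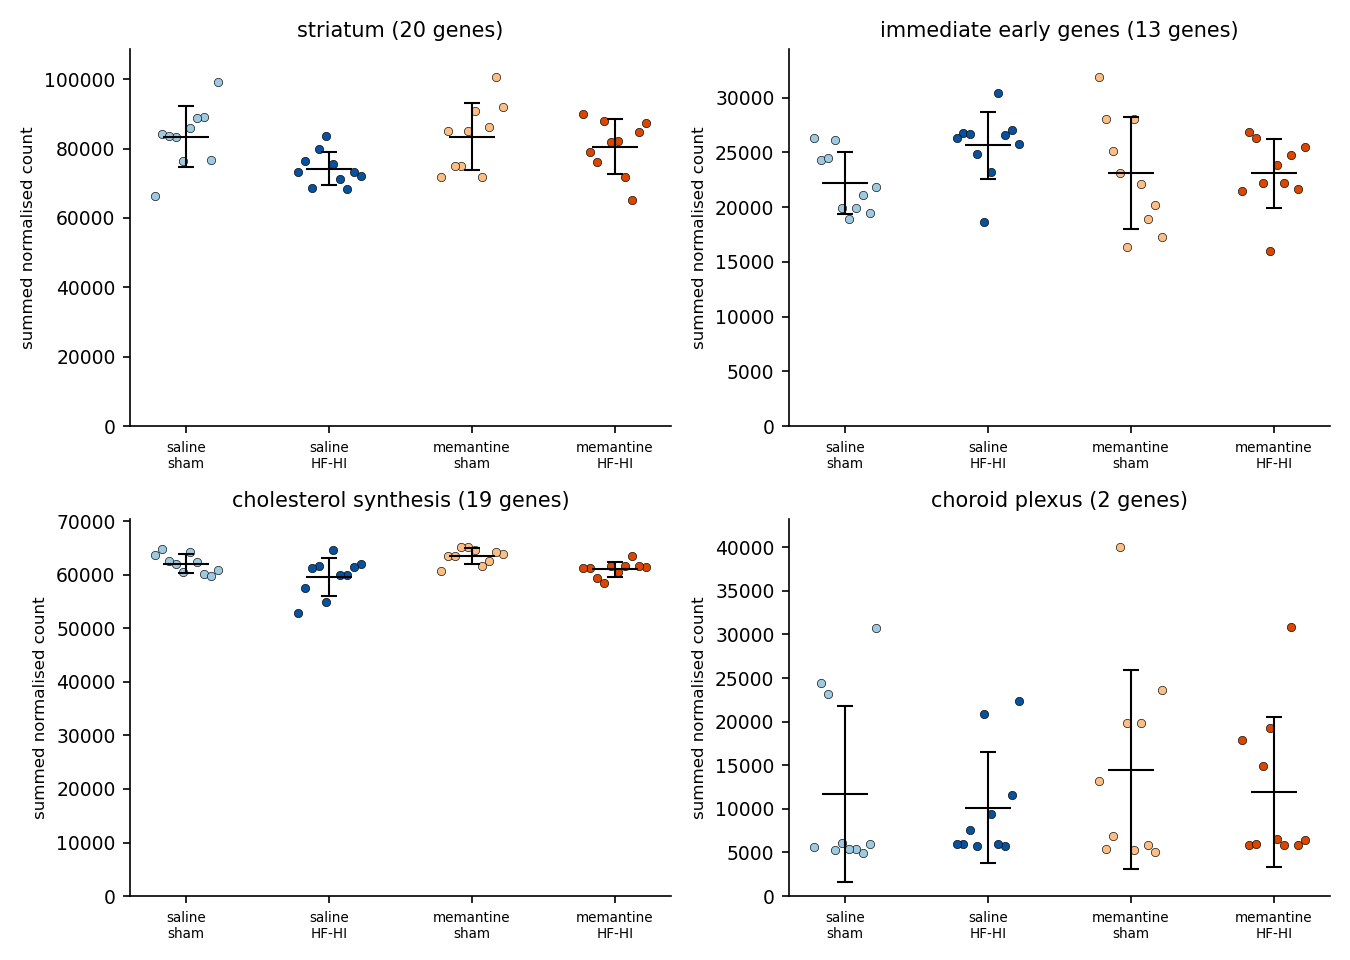
Summed normalised counts of 4 gene lists are plotted for each of the 40 libraries in the 4 groups of 10, with a bar at the group mean and whiskers of 1 SD, on axes that start at 0. The striatal sum is lowest on average in saline HF-HI (74226), and the choroid plexus sum reaches from 4969.7 to 40020.2 among sham libraries.

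Transcript shares, the percent of a gene sum taken by each of its transcripts, gave 0 calls of 1674 (0%) in limma, with 91 at an unadjusted p under 0.05 where chance gives 83.7 and a smallest adjusted p of 0.311. The smallest p-values belonged to Cpsf6, a subunit of the RNA cleavage complex, whose transcript NM_001310609 took 36.7% ± 6.22 of the sum in sham and 43.8% ± 4.80 in HF-HI libraries (mean ± SD over 20 and 20 libraries). Fnbp1l, a membrane-bending protein, was also named by its p-value, with NM_153118 at 26.8% ± 8.44 and 19.7% ± 5.30. As a single transcript Fnbp1l NM_153118 was called lower, from 894 to 639 mean counts with an adjusted limma p of 0.0804, while its gene sum differed by -0.03. NM_009743 of the survival gene Bcl2l1 went from 633 to 547 mean counts and NM_001170341 of Mlf2 from 3273 to 3100.1, with adjusted limma p-values of 0.124 and 0.124.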

How the data were processed

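Members, gene lists and tests were chosen with earlier results of these data known. Per the authors' methods, stranded total RNA libraries depleted of ribosomal RNA were read in 100 bp pairs, aligned to mm10 with STAR and counted per RefSeq transcript with eXpress, whereas the submitters' processing notes name HISAT2 and StringTie with mm10; whether the counting used strand is not given in the sources used here. The authors then scaled the counts and transformed them with DESeq2 to stabilise the variance, and what they deposited are log2 values, compressed at low counts. The 6831 transcripts were not selected here, and the threshold behind their selection is not given in the sources used here.

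The transformation was inverted from its floor (10.36, a count of 0), and in each library 100% of values under 5000 counts were whole reads within 0.05, with size factors from 0.859 to 1.141. RefSeq (GRCm38.p6) and GENCODE gave 6818 transcripts a symbol, and 13 without one stayed out of the 5862 gene sums. At the lowest mean, counting noise amounts to 4.27% of the count. Recovered depth ran from 13322404 to 17529644 reads a library.

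Linear models of limma 3.58.1 (R 4.3.3), moderated by eBayes with a variance trend, were fitted to the deposited values and to log2(gene sum + 1) of the 40 libraries with drug and impact as terms. Drug arms and their difference came from a fit with 1 mean per group. All tests were two-sided, and Benjamini-Hochberg adjustment ran over all features of a table. Calls used an adjusted p under 0.1, and lists were described by an unadjusted p under 0.05. Named were the 12 rising and 12 falling gene sums with the smallest p, 5 and 5 transcripts of other genes, the 3 genes with the smallest p of shares, 2 and 2 genes of the arm difference, list members past the adjusted threshold and the members of 6 lists (immediate early, complement, astrocyte, reactive astrocyte, microglia, and AMPA and NMDA receptor genes). The remaining called genes and the members of other lists past the unadjusted threshold were named after their values were seen. Single genes were permuted within drug arms (100000 resamples). Because the labels name no cages or pools, p-values measure the spread between these libraries. limma voom on the recovered reads was an alternative. No 2 libraries agreed within counting noise. The fits were tested on simulated counts. Values of some genes that these rules name are not reported here.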

Additional observations from a re-analysis of the deposited data

Results flagged for a closer look

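Among 96 sets of 10 libraries (24 named genes in 4 groups) 3 held a library far from the other 9 by the gap to its nearest neighbour, and chance flags about 1 set in 20. C4b was at 691.8 normalised counts in saline sham replicate 7, above the next highest of 566.7. Saline sham replicate 7 is also among the 4 libraries highest in choroid plexus genes. Orai2 was at 922.7 in memantine sham replicate 9, below the next lowest of 1011.5, and Htra1 was at 2401.6 in memantine HF-HI replicate 5, above the next highest of 2102.1. In the fits that left out 1 library C4b was called each time, Orai2 in 36 of 40 and Htra1 in 33 of 40. No named gene differed between the drug arms at an adjusted p under 0.1.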

How the results depend on the processing

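Counts at both thresholds depended on the model. Restricting to a mean count of 1000 or more, which tests fewer features, gave 411 transcripts and 418 gene sums at an unadjusted p under 0.05, and 18 and 20 at an adjusted p under 0.1. The striatal mean as a covariate gave 423 gene sums at the unadjusted threshold, and 7 transcripts and 8 gene sums at the adjusted one. Weighting libraries gave 72 transcripts and 135 gene sums, the first residual component 84 transcripts, 1 mean per group 52 gene sums, and a threshold of 0.05 left 12 transcripts and 14 gene sums. The cause of these shifts was not tested. limma voom called 28 transcripts and 48 gene sums. Among alternatives chosen after seeing the data, replicates 1 to 5 alone gave 5 calls among gene sums, replicates 6 to 10 alone 0 (428 at the unadjusted threshold) and replicates 2 to 10 77, each with fewer libraries, and leaving out the 4 libraries highest in choroid plexus genes gave 18. A separate fit of the saline arm called 9 gene sums. Of the 34 called genes, 8 were called by each of the alternatives that tested them, and none turned direction. These genes were chosen by the main fit of the same libraries, so their kept direction is no test.

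Leaving out 1 library at a time gave 562 to 846 transcripts and 527 to 819 gene sums at the unadjusted threshold, 14 to 89 transcripts and 16 to 113 gene sums at the adjusted one, and 87 to 107 shares, with 0 shares called. The transcript count moved by over 1.5 times when saline sham replicate 3 (14) or 5 (18) was left out, and likewise for memantine sham replicate 3 (15), 4 (16) or 9 (89), saline HF-HI replicate 5 (16) or 9 (16), and memantine HF-HI replicate 2 (14), 3 (18), 5 (43) or 9 (15). The arm difference had 169 to 331 gene sums at the unadjusted threshold, the last without saline HF-HI replicate 1, and 0 called.

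Across all genes, same-numbered libraries did not deviate together (60 pairs, correlation from -0.228 to 0.277, 8 over 0.1, and 4 of 40 libraries closest to their own number). A correlation over all genes cannot show whether the numbers mark a pairing or batch that acts on some genes. Arc was lowest in replicate 1 of all 4 groups, and sham libraries stood apart by number for several immediate early genes. With the replicate number as a block (replicate block), 675 and 29 transcripts, 639 and 47 gene sums, 95 and 0 shares and 221 and 0 arm differences passed the 2 thresholds.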

Other observations

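Among 8 interneuron genes the matrix glycoprotein Reln and the peptide gene Sst were lower and the calcium buffer Pvalb higher in HF-HI than in sham libraries at an unadjusted limma p under 0.05. Reln went from 3920.5 ± 301 to 3617 ± 264 normalised counts and Sst from 882 ± 95.8 to 799 ± 67.01 (mean ± SD over 20 and 20 libraries). Pvalb went from 820.0 ± 103 to 883 ± 85.9. Their adjusted limma p-values were 0.123 for Reln, 0.181 for Sst and 0.433 for Pvalb. Reln differed by -0.19 under saline and -0.04 under memantine, Sst by -0.19 and -0.09 and Pvalb by 0.16 and 0.07. The unadjusted limma p-values of the arm difference were 0.0207, 0.266 and 0.373 in that order, and no gene sum was called for it.

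Circadian clock genes held 2 of 19 higher at the unadjusted threshold (Bhlhe40 and Hlf) and 0 lower in limma, with a median of 0.03. Of 36 genes of the MAP kinase cascade 5 were lower (Mapk4, Rps6ka3, Map3k12, Spred1 and Araf) and 1 higher (the phosphatase Dusp6), with a median of -0.02. Potassium channel genes held 2 of 30 higher (Kcnip4 and Kcnh7) and 4 lower (Kcnip3, Kcnk1, Hcn2 and Kcnd3), with a median of -0.0035. Kcnip4 differed by 0.43 under saline and 0.04 under memantine (unadjusted limma p of 0.0114 for the arm difference, not called). Sodium and calcium channel genes held 2 of 20 higher (Cacnb4 and Scn1a) and 3 lower (Scn3a, Scn3b and Cacna1e), with a median of -0.03. Among 12 glucocorticoid-responsive genes the receptor genes Nr3c1 and Nr3c2 were higher and Mertk lower. Nr3c1 differed by 0.15 under saline and 0.03 under memantine (unadjusted limma p of 0.0111 for the arm difference, not called). Oxidative phosphorylation held 1 of 44 higher (Atp5c1) and 0 lower, and neurodegeneration genes held 2 of 20 higher (Itm2b and Clu) and 0 lower. At that threshold 10.9% of all gene sums passed.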
